A study of Mus musculus with 19 samples.

Results

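Loss of the element named ZRSreg was compared on a chromosome that already lacked the CTCF sites i4 and i5, by setting the limb map of the allele with all of these deleted against the limb map of the allele lacking i4 and i5 alone. All pairs of 10 kb bins were compared except those that touch the 5 bins from 29650001 to 29700000 of chromosome 5 (mm9), where the map of the i4i5 allele had low coverage. This left 37950 of 39340 bin pairs, and the 1390 pairs set apart are described separately. The comparison rests on 4 of the 19 samples of the series, 2 for each genotype, merged by the authors into 1 map per genotype.

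The product of Shh, Sonic hedgehog, is a secreted protein that patterns the limb bud from its posterior margin. Its expression there depends on the ZRS, an enhancer that lies far from Shh within an intron of the gene Lmbr1. CTCF is a DNA-binding protein that, with the cohesin complex, holds many chromatin loops and marks many borders of topological domains, and Shh and the ZRS lie near opposite ends of such a domain.

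Capture Hi-C was used, in which ligation joins DNA pieces that lie close in fixed chromatin and probes enrich the joined pieces of a chosen region, so that the count for a pair of bins reports how often they lay close together. Limb buds came from embryos at E10.5. Both genotypes compared here are of the G4 strain by the labels: limb buds lacking CTCF sites i4 and i5 (the i4i5 allele), and limb buds lacking i4, i5 and ZRSreg (the combined allele). Limb buds lacking ZRSreg alone (G4, 2 samples) and wild type limb buds (C57BL/6, 3 samples) give this deletion with i4 and i5 present. Limb buds of the genotype deltaCTCF i4i5ZRS (G4, 2 samples), called i4i5ZRS here, give another map without i4 and i5. By its name that allele lacks a further CTCF site, at the ZRS. Its differences from the i4i5 map are therefore not a spread between like maps. For the check of coverage the other 4 maps of the series are set beside these: limb buds lacking the Lmbr1 promoter (G4), midbrain of wild type (C57BL/6) and i4i5ZRS (G4) embryos, and wild type ES cells (G4), with 2 samples each. The labels do not say what ZRSreg covers. The question, as far as the genotypes state it, is what loss of the enhancer element changes once the CTCF sites are gone. The series design calls the mutant samples technical replicates, and the files hold merged maps, so there is no spread between replicates and no test of the genotypes. The 95% intervals below reflect the counting error of summed contacts alone, so they can be too narrow, and they set library against library. Library numbers in the titles of the i4i5 samples are lower than those of the combined allele. The labels do not say whether these numbers mark batches, and if they do, batch and genotype cannot be told apart.

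The maps span 280 bins from 27800001 to 30600000. They held 2530300 contacts for the combined allele and 1177173 for the i4i5 allele, and the median count of a bin pair 100 kb or more apart was 19 and 9. Contacts at 20 to 100 kb made up 35.4% and 32.7% of the 2 maps, and those at 100 to 500 kb 36.3% and 37.7%. Signal was therefore compared after scaling by separation, except in insulation, coverage, shares of contacts and some alternative scalings. Contact is given as observed over expected, which is the balanced signal of a pair over the mean for its separation in that map, and differences are given as the log2 ratio of the combined over the i4i5 allele. Distances are counted from the promoter bin, and the Shh promoter is the pair of bins from 28780001 to 28800000. The ZRS bins are the 3 kept bins from 29620001 to 29650000, 830 to 850 kb from the promoter, placed from general knowledge of the distance of the ZRS. The domain is the stretch between the border bins at -30 and 910 kb, and its gene-poor middle, from 100 to 750 kb, is called the interior. The flanks are the 500 kb on either side of the domain.

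The deletion itself was looked for in the recovered counts, which balancing hides. The bin at 850 kb (29640001 to 29650000) had the lowest ratio of counts between the combined and the i4i5 allele of all 280 bins, a log2 ratio of -0.34 with an SD of 0.13 over bins. On the chromosome with i4 and i5, the ratio of ZRSreg over wild type at this bin was -0.17, the sixth lowest, with an SD of 0.09. Against its 6 neighbours this bin stood 0.29 higher in the ZRSreg map and 0.36 higher in the combined map, the lowest values of the 9 maps of the series. The other 7 maps lay between 0.39 in the Lmbr1 promoter deletion and 0.75 in i4i5. Both maps labelled as lacking ZRSreg thus had the least coverage there, and a 10 kb bin cannot show whether the element is gone. The i4i5 map, the highest of all at this bin, adds to the ratio.

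As scaled here, contact of the Shh promoter with the ZRS bins showed no difference beyond counting error between the combined and the i4i5 allele. Its direction depended on balancing, and its distance from 0 on the expected value and on the bins kept. It was 3.27 times the expected signal on the combined allele (2.96 to 3.60, 413 contacts) and 2.82 on the i4i5 allele (2.45 to 3.22, 215 contacts). The value was 16.0% higher on the combined allele, a log2 ratio of 0.21 whose interval of -0.03 to 0.46 includes 0. On counts without balancing it was -0.05 (-0.29 to 0.20). With the median as the expected value it was 0.25 (0.0055 to 0.49), an interval above 0. With the set-apart bins kept, so that the ZRS bins reach 870 kb, it was 0.24 (0.03 to 0.45), also above 0. All 3 ZRS bins were higher on the combined allele, and the SD of their log2 ratios was 0.15. The third map without i4 and i5, i4i5ZRS, which lacks a further CTCF site, stood above both at 3.91 (3.52 to 4.34). All 3 were far below the maps with i4 and i5, at 6.58 in ZRSreg (6.12 to 7.07) and 6.51 in wild type (6.11 to 6.92).

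The single bins around the ZRS rest on few contacts, so their intervals are wide. At 830 kb promoter contact was 3.15 on the combined allele and 2.59 on the i4i5 allele, from 116 and 46 contacts. At 840 kb it was 3.45 and 2.77, from 112 and 49 contacts. At 850 kb, the bin with the low coverage ratio, it was 3.21 and 3.10, from 185 and 120 contacts. These log2 ratios of 0.28, 0.32 and 0.05 all had intervals that include 0, the widest reaching from -0.22 to 0.81. The neighbouring bins on the promoter side were nearly level between the alleles. Contact was 4.43 against 4.60 at 800 kb, 5.80 against 5.49 at 810 kb and 3.79 against 3.59 at 820 kb. In both maps the bins at 830 to 850 kb therefore lay in a dip between the higher contacts at 810 kb and at the border bin at 910 kb, which met the promoter at 5.09 and 5.04.

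**Figure D1:**
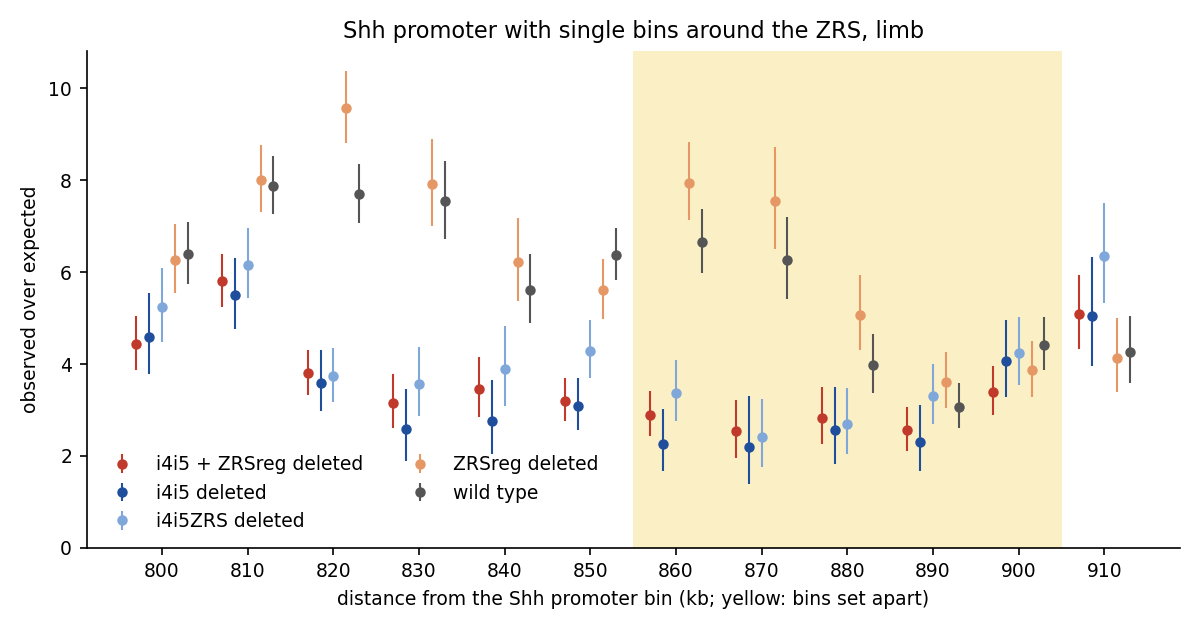
Observed over expected contact of the Shh promoter (vertical axis) with each 10 kb bin from 800 to 910 kb (horizontal axis) in the limb maps; points are the merged maps, bars are 95% counting intervals, and yellow marks the bins set apart. The bars of the combined and i4i5 alleles overlap at every bin, as at 830 kb with 3.15 and 2.59.

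On the chromosome that keeps i4 and i5, ZRSreg loss gave a log2 ratio of 0.02 at the same promoter and ZRS bins (-0.12 to 0.15, ZRSreg over wild type). The change on the i4i5 allele exceeded it by 0.20. Its standard error from counting was 0.14 and its interval -0.08 to 0.47. The effects of ZRSreg loss on the 2 chromosomes could therefore not be told apart at this depth. The interval allows the combined allele to have gained up to 0.47 more, or lost up to 0.08 more, on the log2 scale. These ratios share no map, but ZRSreg and wild type also differ in strain, which cannot be told apart from the deletion.

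The top of the promoter profile was in the same order on both alleles. Beyond 500 kb the bins of highest promoter contact lay at 1010, 1000, 1020 and 810 kb, in this order. The top bin, 1010 kb (29800001 to 29810000), lies beyond the upper border. It had 8.82 on the combined allele and 7.34 on the i4i5 allele (438 and 192 contacts, log2 ratio 0.26, 0.02 to 0.52), against 7.98 in i4i5ZRS and 5.42 in wild type. Over the 3 bins from 1000 to 1020 kb contact was 7.74 and 6.60, a log2 ratio of 0.23 (0.09 to 0.37). On the chromosome with i4 and i5 the same 3 bins gave 0.09 for ZRSreg over wild type (-0.05 to 0.24). The local peaks inside the domain, each a single bin, had 3.69 against 3.53 at 570 kb and 3.75 against 4.26 at 730 kb. The log2 ratio had an SD of 0.25 over the 75 promoter bins within the domain below the ZRS region. No direction is therefore read from either peak.

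Over the 2 promoter bins together, more contact was found across the upper border. The promoter met the 50 bins of the upper flank at 2.45 on the combined allele (2.38 to 2.51, 5831 contacts) and at 2.20 on the i4i5 allele (2.12 to 2.28, 2806 contacts). This is a log2 ratio of 0.15 (0.09 to 0.22), or 11.3% more. The bins were divided, 30 higher and 20 lower, with an SD of 0.36 between them. By distance from the border it was 0.23 (0.13 to 0.33) at 920 to 1010 kb, where contact was 4.69 and 4.00, and 0.21 (0.07 to 0.34) at 1020 to 1110 kb. It was 0.08, -0.06 and 0.16 in the next 3 stretches of 10 bins, with intervals that include 0. Whether near and far stretches differ was not tested. The i4i5ZRS map reached 2.66 in the upper flank and 4.83 at 920 to 1010 kb, above both alleles, so the sign of the difference turns when it takes the place of the i4i5 map (-0.12). With the main promoter bin alone, which starts at 28790001, the log2 ratio was 0.06 (-0.02 to 0.15) in place of 0.15. That interval includes 0, so the higher contact was not seen beyond counting error at this bin. On the chromosome with i4 and i5 the value for the upper flank was -0.02.

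With the interior, promoter contacts were 1.45 and 1.43, a log2 ratio of 0.02 (-0.03 to 0.07), and 37 of 66 bins were higher on the combined allele. The value was -0.07 (-0.12 to -0.02) without balancing and -0.20 (-0.24 to -0.15) with i4i5ZRS as the reference map. With the lower flank they were 0.879 and 0.875, a log2 ratio of 0.01 (-0.05 to 0.06), while the chromosome with i4 and i5 gave 0.14 (0.09 to 0.19) there. Of the promoter's contacts at separations of 20 kb or more, 16.1% (15.7% to 16.5%) lay beyond 1000 kb on the combined allele and 15.2% (14.7% to 15.8%) on the i4i5 allele. The share was 14.7% in i4i5ZRS and 10.8% in wild type. These are shares of recovered counts, neither balanced nor scaled by separation. Between the combined and the i4i5 allele they differed by 0.84 percentage points (0.14 to 1.54). On balanced signal this was 0.35 (-0.44 to 1.14), an interval that includes 0. For counts beyond the upper border it was 1.42 (0.62 to 2.21).

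Bin by bin, the promoter profile differed little beyond counting noise. Of 266 kept bins at 50 kb or more, 148 were higher and 118 lower on the combined allele. The interval lay above 0 for 14 bins and below 0 for 4. The upper flank, with 50 of the 266 bins, held 7 of the 14 and 0 of the 4. ZRSreg over wild type gave 20 bins above 0 and 12 below, of which 3 and 4 lay in the upper flank. For the combined over the i4i5 allele, whether the upper flank held more such bins than its share was not tested. In means over 3 bins, 8 of 258 positions (3.1%) had a log2 ratio at or above 0.5, a linear fold of 1.41, and 5 (1.94%) had one at or below -0.5. The highest 3 with enough contacts lay at 1390, -550 and 1650 kb. At 1390 kb contact was 1.01 on the combined allele and 0.563 on the i4i5 allele, from 116 and 33 contacts. At 1650 kb it was 2.08 and 1.22, from 170 and 49 contacts, with a log2 ratio of 0.77 here and of 0.56 for ZRSreg over wild type. The lowest 3 lay at 1760, -490 and -940 kb. Their log2 ratios were -0.74, -0.63 and -0.62, from no more than 40 contacts each on the i4i5 allele. None of these 6 positions lies within the domain.

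**Figure D2:**
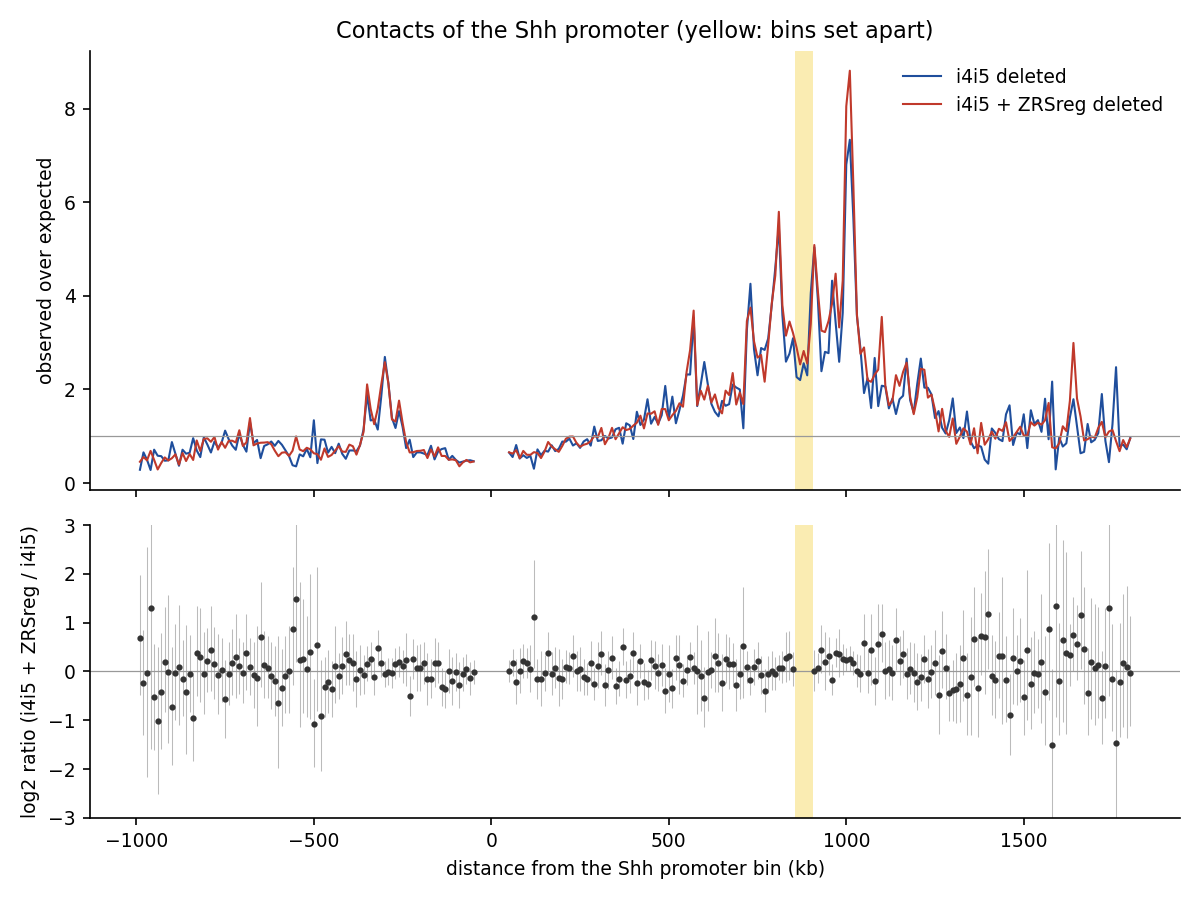
Contact of the Shh promoter along the map (upper panel, observed over expected against distance in kb) on the combined and i4i5 alleles, and its log2 ratio per bin (lower panel, axis ending at -3 and 3, which a few bars pass); yellow marks the bins set apart. Both profiles peak at 1010 kb, at 8.82 and 7.34.

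The ZRS bins themselves met other parts of the locus differently on the 2 alleles. Their contact with the interior was 1.29 on the combined allele (1.26 to 1.31, 10490 contacts) and 1.20 on the i4i5 allele (1.17 to 1.23, 5562 contacts). This is 7.38% more, a log2 ratio of 0.10 (0.06 to 0.15), with 44 of 66 bins higher and an SD of 0.23 between bins. On counts that were not balanced the sign was the opposite, -0.05, and the part of the low coverage ratio at 850 kb in this was not tested. At 830, 840 and 850 kb the balanced log2 ratio was 0.15, 0.06 and 0.10. The neighbouring bins gave -0.05 at 800 kb, 0.08 at 810 kb and 0.05 at 820 kb. The chromosome with i4 and i5 gave 0.03 for the ZRS bins.

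Across the upper border the ZRS bins had less contact on the combined allele. With the upper flank they were at 0.808 (0.787 to 0.828, 6040 contacts) against 0.903 on the i4i5 allele (0.874 to 0.933, 3729 contacts). The change was -10.6%, a log2 ratio of -0.16 (-0.22 to -0.10), and 36 of the 50 flanking bins were lower, with an SD of 0.24 between bins. Each of the 3 ZRS bins was lower, by log2 ratios of -0.18, -0.17 and -0.14 at 830, 840 and 850 kb. The bin at 820 kb gave -0.15 and that at 810 kb -0.06, so the lower contact was not limited to the ZRS bins. ZRSreg over wild type gave -0.07 (-0.13 to -0.02) for the same bins. The i4i5ZRS map was at 0.827, close to the combined allele, and against it the log2 ratio was -0.03. Of the 3 maps without i4 and i5, the i4i5 map is thus the one that stands apart in this contact.

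The lower contact reached over much of the flank. In 4 stretches of 10 bins from 920 to 1310 kb the log2 ratio of the ZRS bins was -0.21, -0.24, -0.24 and -0.17, all with intervals below 0, and at 1320 to 1410 kb it was 0.03. The promoter, at the other end of the domain, had more contact with the nearest 2 of these stretches, as given above. In the 7 stretches of 10 bins from 100 to 790 kb, contact with the first 10 bins above the border differed by log2 ratios between -0.04 and 0.06, and every interval included 0. At 800 to 820 kb the value was -0.08 (-0.19 to 0.02), and at the ZRS bins it was -0.21 (-0.31 to -0.11), with contacts of 0.645 and 0.746. The border bin at 910 kb met the ZRS bins at 0.707 on the combined allele and at 0.928 on the i4i5 allele, from 217 and 155 contacts, a log2 ratio of -0.39 (-0.70 to -0.09).

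**Figure D3:**
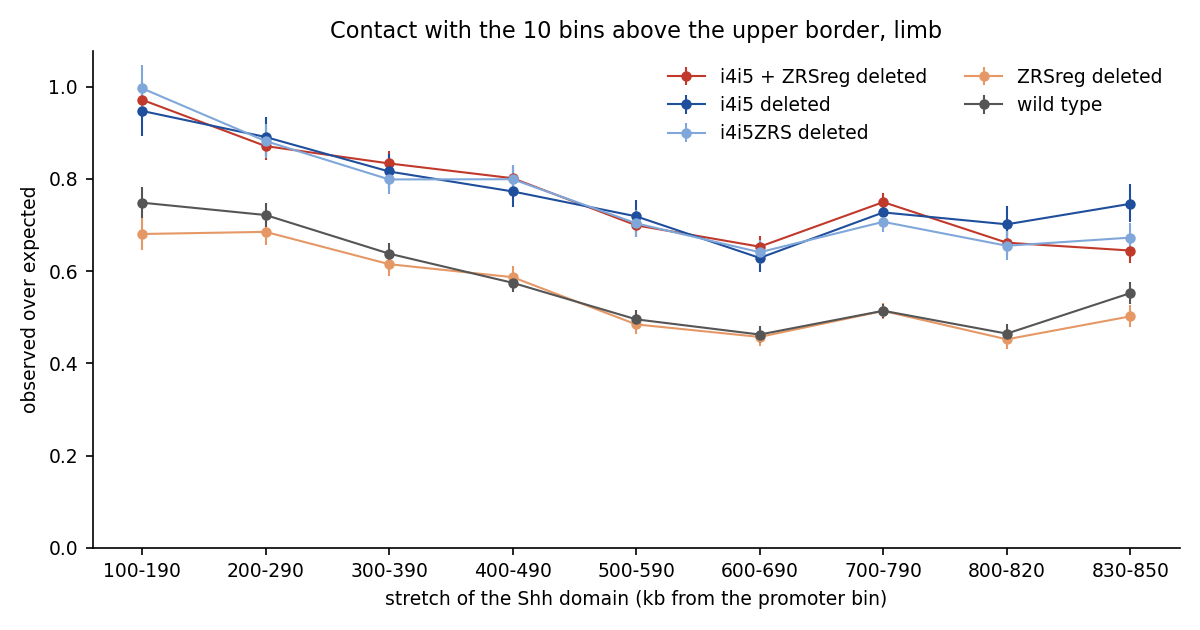
Contact of stretches of the Shh domain (horizontal axis, kb from the promoter bin) with the first 10 bins above the upper border (vertical axis, observed over expected) in the limb maps, with 95% counting intervals. The combined and i4i5 alleles run together up to 790 kb and part at 830 to 850 kb, at 0.645 and 0.746.

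Other bins known as prominent from earlier results of these data were followed as well. The bin at 1010 kb, the top promoter contact, met the interior at 0.571 on the combined allele and 0.603 on the i4i5 allele (log2 ratio -0.08, -0.21 to 0.05). It met the lower flank at 2.46 and 2.34 (0.08, -0.02 to 0.17). With the other bins of the upper flank it was at 0.721 and 0.781, a log2 ratio of -0.12 (-0.18 to -0.05), with 16 of 47 bins higher, while ZRSreg over wild type gave 0.02. The bin at -20 kb, just outside the promoter bins, met the upper flank at 2.58 and 2.21, a log2 ratio of 0.22 (0.05 to 0.40) in the same direction as the promoter, with 29 of 50 bins higher. Its contact with the ZRS bins was 2.83 and 3.17, from 49 and 29 contacts, with an interval of -0.86 to 0.55 that is too wide to order the alleles. The border bin at 910 kb was level with the interior (0.03) and with the upper flank (0.02), and the lower value there was that with the ZRS bins given above. The ZRS bins met the lower flank at 1.23 and 1.20, a log2 ratio of 0.04 (-0.05 to 0.12), while wild type and ZRSreg were at 1.87 and 1.92.

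Insulation puts this in 1 number per bin, with lower values where fewer contacts cross. It compares the signal of a square of 10 by 10 bins that spans the bin with the map-wide mean of such squares, as a log2 value. This is balanced signal that was not scaled by separation. The pairs set apart were left out. At the upper border bin, 910 kb (29700001 to 29710000), it was -1.02 on the combined allele and -0.80 on the i4i5 allele. The difference of -0.22 was the lowest of 255 bins, whose SD was 0.06. The square there holds 5 bins on the domain side, the ZRS bins among them, since the others were set apart. Those left out are the nearest to the border, so only pairs further apart remain, unlike in most squares it is ranked against. The part of the maps' different decay with separation in this difference was not tested. With the set-apart bins kept, the difference at the border was -0.09, and 19 of 260 bins had a lower one, so the rank is lost. The i4i5ZRS map was at -0.99, so against it the combined allele differed by -0.03. ZRSreg was at -1.47 and wild type at -1.33, a difference of -0.14, the eighth lowest. The highest rise of the combined over the i4i5 allele was 0.11, at -450 kb. At the lower border the alleles were at -0.98 and -0.96.

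In larger blocks the alleles differed by a few percent. Contact within the domain was 1.30 on the combined and 1.27 on the i4i5 allele, 2.56% more, with 72 of 88 bins higher (log2 ratio 0.04, 0.03 to 0.05). Its sign was not stable: it was -0.07 when maps were scaled by their total and -0.03 on counts without balancing. The domain with the upper flank was at 0.883 and 0.903, a log2 ratio of -0.03 (-0.05 to -0.02), with 17 of 50 bins higher. With a flank of 30 bins it was 0.0043 (-0.01 to 0.02), and with the median as the expected value -0.0054 (-0.02 to 0.01), so neither its sign nor its distance from 0 was stable. With the lower flank the domain was at 0.830 and 0.850, also -0.03, with 14 of 50 bins higher. The 2 flanks met each other at 1.34 and 1.29 (0.05, 0.03 to 0.07). Within the upper flank the log2 ratio was -0.03 and within the lower flank 0.02. The domain met the bins beyond the upper flank at 0.696 and 0.731 (-0.07, -0.09 to -0.05, 11 of 39 bins higher) and those beyond the lower flank at 0.899 and 0.903. On the chromosome with i4 and i5 these last 2 blocks gave -0.06 and 0.10. Set among the maps without i4 and i5, the combined allele lay between i4i5 and i4i5ZRS in 7 of the 15 blocks measured, above both in 3 and below both in 5.

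**Figure D4:**
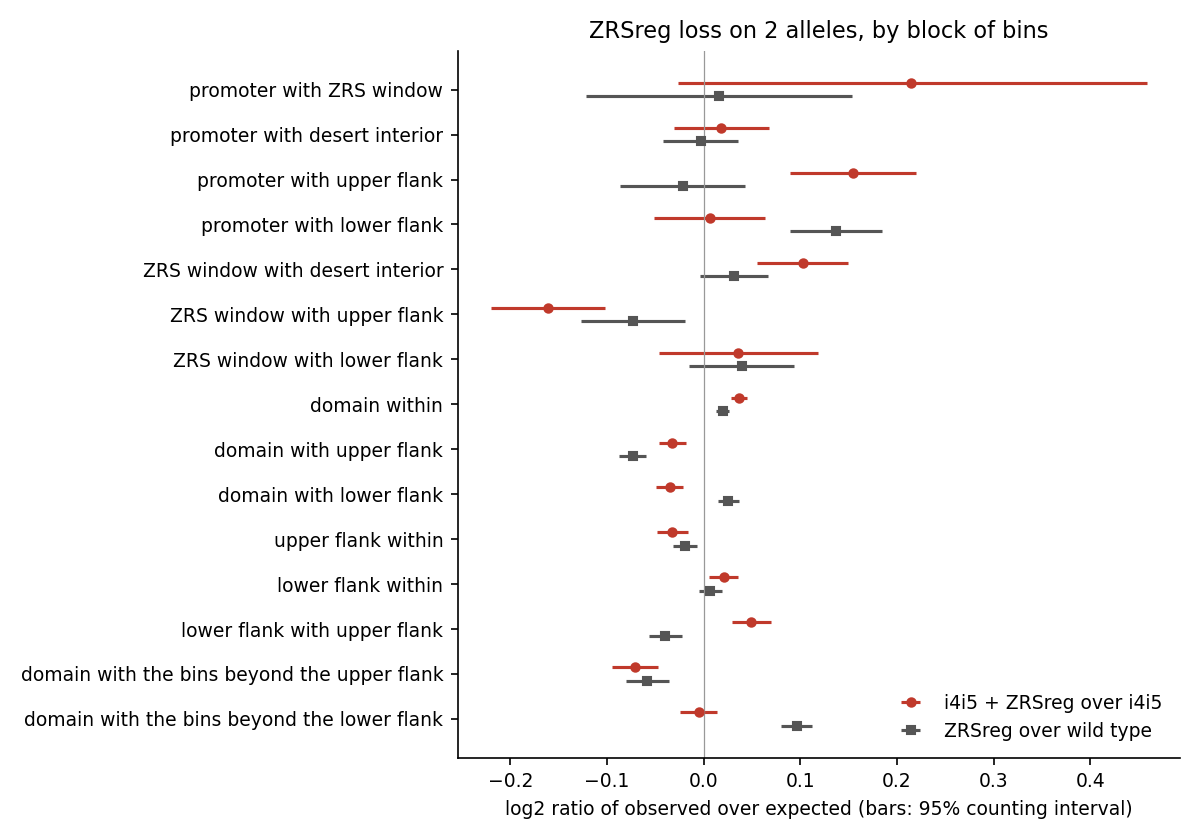
Log2 ratio (horizontal axis) of observed over expected for 15 blocks of bins, for the combined over the i4i5 allele (circles) and for ZRSreg over wild type (squares), with 95% counting intervals. The ZRS bins with the upper flank lie at -0.16 and -0.07, and the promoter with the ZRS bins at 0.21 and 0.02.

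Over the whole map, positions past a set fold were few, and most joined bins far apart. Contacts were averaged over 5 by 5 bins at separations of 100 kb or more, which gave 34226 positions. Of these, 203 (0.593%) had a log2 ratio at or above 0.5 and 178 (0.52%) one at or below -0.5. The split depended on the scaling, with 557 higher and 96 lower on counts without balancing and 172 and 295 with the median as the expected value. ZRSreg over wild type gave 114 (0.333%) and 119 (0.348%). Within the domain 0 of 3081 positions passed in either direction, and the median there was 0.03 against -0.01 over the whole map. This was not particular to the domain. Within each flank 0 of 820 passed, and anywhere in the map 0 of 3735 at 100 to 250 kb and 0 of 5725 at 250 to 500 kb. The domain positions also held more contacts, a median of 864 on the i4i5 allele against 261 over all positions. Between the domain and the upper flank 0 of 4394 were higher and 4 lower. The positions past the fold lay far from the diagonal: 158 of the 203 and 154 of the 178 had a separation of 1500 kb or more. Where both maps had at least 100 contacts, 4 of 28712 positions were higher and 43 lower. At the same positions ZRSreg over wild type gave 7 and 23. Under 100 contacts in a map lay 199 of the 203 higher and 135 of the 178 lower positions. The i4i5 map is the shallower, so this floor mainly takes out positions that are low in it. The counts of 4 and 43 therefore do not compare the directions. The SD of the log2 ratio over all positions was 0.17, against 0.14 from counting alone.

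The positions at the extremes joined distant bins with few contacts. The highest joined bins at -520 and 1350 kb, with contact of 1.03 and 0.394 from 87 and 12 contacts. The next joined -570 with 1600 kb, from 65 and 17 contacts, and -510 with 1100 kb, from 123 and 20 contacts. The lowest joined -620 with 1690 kb, -530 with 1480 kb and -920 with 1530 kb, at log2 ratios of -0.86, -0.85 and -0.85. Low coverage moved with the positions past the fold in both directions. The 6 bins at -540, -520, -510, -500, -490 and 1560 kb had recovered 1422 to 2447 contacts each on the i4i5 allele, against a median of 5611, and a log2 coverage ratio above 0.4. They touched 107 of the 203 higher positions (52.7%), 66 of the 178 lower ones (37.1%) and 10.9% of all positions. Their part in the result was not tested beyond this count.

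**Figure D5:**
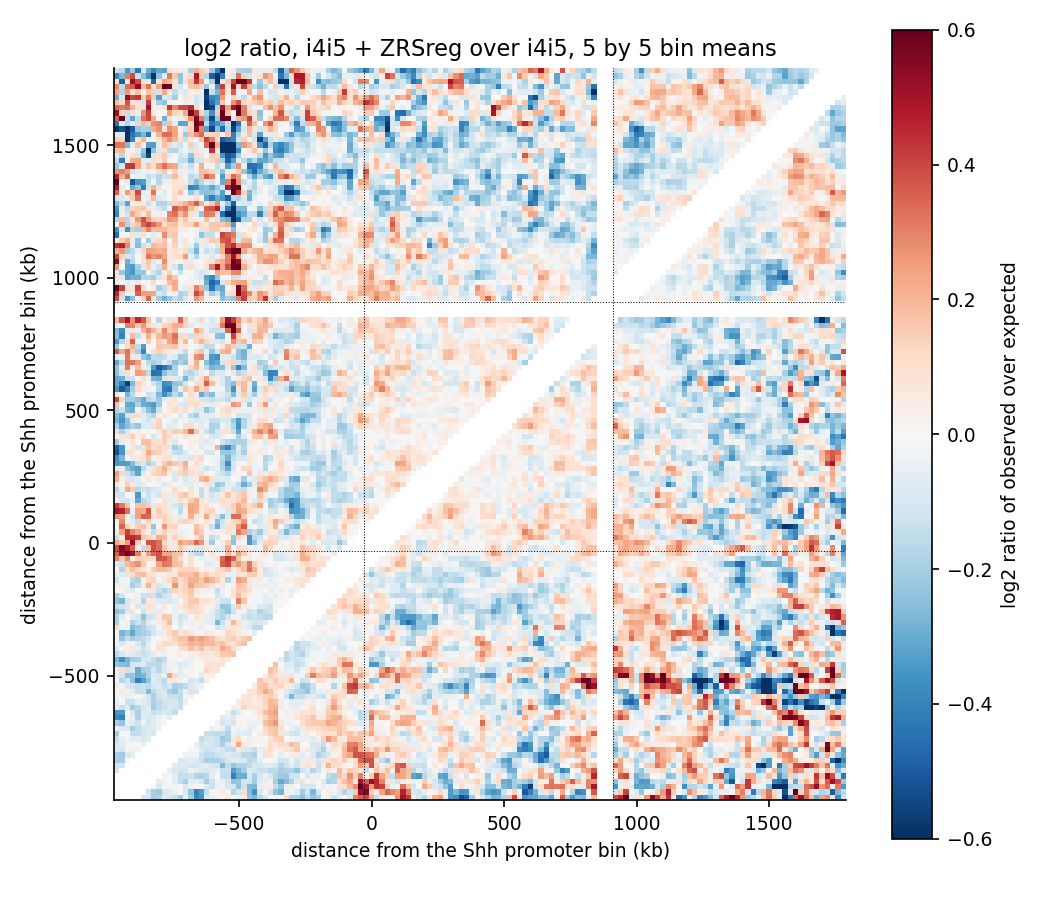
Log2 ratio of the combined over the i4i5 allele for 5 by 5 bin means of observed over expected, with both axes in kb from the promoter bin; bin pairs that touch the bins set apart and those closer than 100 kb are blank, and values past the colour scale take its end colours. No position within the domain, between -30 and 910 kb, reaches 0.5, and neither does any at separations of 100 to 500 kb elsewhere. Of the 203 positions at or above 0.5, 158 lie at separations of 1500 kb or more.

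The pattern of ZRSreg loss on the 2 chromosomes was compared over squares of 5 by 5 bins that do not overlap, as a description. Over 1432 squares the log2 ratios of the combined over the i4i5 allele and of ZRSreg over wild type had a Pearson correlation of 0.08 and a Spearman correlation of 0.09. Over the 136 squares within the domain they were -0.05 and -0.02. In the 1196 squares with at least 100 contacts in all 4 maps they were both 0.13. Squares of a map share its libraries and depth, and these values do not show a shared pattern. Counting error lowers such correlations. In the smoothed 5 by 5 bin means its SD was 0.14 of 0.17 for the combined over the i4i5 allele. For ZRSreg over wild type it was 0.12 of 0.15. How high a correlation the depth allows was not measured, so a shared pattern is not excluded.

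The bins set apart, 860 to 900 kb, had 20756 recovered contacts on the i4i5 allele and 52445 on the combined allele. Against their flanks they stood at -0.52 (log2) in the i4i5 map and between -0.26 and -0.08 in the other 8 maps. The Shh promoter met them at 2.84 on the combined and 2.68 on the i4i5 allele, from 565 and 246 contacts (log2 ratio 0.09, -0.13 to 0.31), while wild type was at 4.88. The first 4 were higher on the combined allele, as in 2.90 against 2.27 at 860 kb. The bin at 900 kb was lower, 3.40 against 4.06, and each interval included 0. With the interior these bins were at 1.22 and 1.13 (0.11, 0.06 to 0.15) and with the upper flank at 0.883 and 0.895 (-0.02, -0.07 to 0.03). Without balancing the same log2 ratios were 0.25 with the promoter, 0.33 with the interior and 0.25 with the upper flank, so these values depend on how the low coverage of the i4i5 map is corrected.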

How the data were processed

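Per the labels' protocols, limb tissue was fixed with 2% formaldehyde, digested with DpnII, ligated, sheared and captured with SureSelect probes. Bowtie2 2.3.4.1, SAMtools, Juicer, cutadapt 1.15 and mm9 are named in the submitters' processing notes, with settings not given in the sources used here. Each deposited value is the signal of 1 pair of 10 kb bins, which the authors merged over samples, filtered at MAPQ 30 and balanced (KR), per the names of the files. Balancing gives every bin of a map the same total, here 16356 for the combined and 7602 for the i4i5 allele. Contacts were recovered as whole counts over bin factors (100% within 0.01 of a whole number in each map). The 95% counting intervals are exact for summed counts and were carried over to the mean of observed over expected. That mean weights contacts unequally, so the intervals can be too narrow, by an amount that was not measured. They treat the bin factors as known, and without molecular identifiers read pairs may repeat a molecule. Shares have Wilson intervals. Unlisted pairs were taken as 0.

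Bins, windows, borders and blocks were chosen with earlier results of these data known, as were the comparison and the bins set apart. Named features are Shh, the ZRS bins, Lmbr1, the peaks of the promoter profile beyond 500 kb, both borders, the bins at -20, 0, 810, 820, 850, 910 and 1010 kb, and the 3 highest and 3 lowest positions of the smoothed map and of the promoter profile (3-bin means, at least 20 contacts in each map). Other bins were named after their values were seen, as were the coverage bins and the stretches of the flank. Python 3.11.15, numpy 2.4.6, scipy 1.17.1 and pandas 2.3.3 were used, and the scripts were tested on simulated maps. Alternatives were other scalings, counts without balancing, other windows, flanks, squares and smoothing, the set-apart bins kept, and i4i5ZRS as the reference map.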

Additional observations from a re-analysis of the deposited data

Results flagged for a closer look

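In 2 blocks the log2 ratio had opposite signs on the 2 chromosomes, with both counting intervals apart from 0. The difference between the chromosomes was not tested against any spread between replicates, as each genotype has 1 merged map. The domain with the lower flank gave -0.035 for the combined over the i4i5 allele and 0.026 for ZRSreg over wild type. With i4i5ZRS as the reference map the first of these was -0.0062, with an interval of -0.02 to 0.01 that includes 0. The lower flank with the upper flank gave 0.049 and -0.0399. ZRSreg and wild type differ in strain.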

How the results depend on the processing

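Of 81 alternative values, 47 lay within the counting interval of the reported value, or for counts of positions near the reported count, 27 moved further and 7 turned a value whose interval excluded 0. In all, 12 had the other sign, among them promoter contact with the interior and insulation at the lower border, 0.11 with i4i5ZRS as the reference. The cause was not tested. Signal as deposited, on no common scale, gave 1.19 for the promoter with the ZRS bins, 1.38 for the difference between chromosomes and 0.93 for the domain with the upper flank (-0.03 as reported). Without balancing, the promoter with the ZRS bins was at -0.046, the ZRS bins with the interior at -0.048 and with the upper flank at -0.26, the domain within at -0.030, and 557 and 96 positions passed the fold. With i4i5ZRS as the reference, the promoter was at -0.26 with the ZRS bins and at -0.12 with the upper flank. The ZRS bins were then at -0.034 with the upper flank, the domain at -0.036 within and -0.015 with the upper flank, and insulation differed by -0.028. Total scaling gave -0.068 within the domain and -0.18 with the upper flank. A flank of 30 bins gave -0.23 for the ZRS bins and 0.0043 for the domain. With the set-apart bins kept, the domain was at 0.047 and insulation at -0.092. Scaling by the median in place of the mean gave -0.0054 for the domain with the upper flank and 295 lower positions. Means over 3 by 3 bins gave 1122 higher and 1089 lower positions, and over 7 by 7 bins 40 and 24. Setting the bin at 850 kb apart too, an alternative chosen after seeing the data, moved none of the 5 results it was run on. A square of 5 by 5 bins at the upper border could not be computed, since its domain side lies in the bins set apart. No paired analysis was possible because each genotype has 1 merged map. Depth, 1177173 contacts on the i4i5 allele, limits single bins of the promoter profile to intervals about as wide as the changes sought.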
